A study of Mus musculus with 4 samples.

Results

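The 10 genes described here encode the mouse MHC class II antigen-presentation machinery and its transactivator. They were taken by name from a table of 16755 genes measured in sorted alveolar macrophages, and 10 of 10 were present: H2-Aa, H2-Ab1, H2-Eb1, H2-DMa, H2-DMb1, H2-DMb2, H2-Oa, H2-Ob, Cd74 and Ciita. RNA of alveolar macrophages, the phagocytes of the lung air spaces, was sequenced in bulk from C57BL6 wild-type (WT) mice and C57BL6 mice without osteopontin (OPNKO), the secreted glycoprotein encoded by Spp1, with 2 libraries per genotype. All 4 samples carry a bleomycin tag, and the table's columns name day 14; bleomycin is a drug used to injure the lung. A protocol field of the same samples states no treatment, and no untreated group was analysed here. The sources used here do not state the age or sex of the mice, the knock-out allele, or whether replicates came from separate animals. The spread behind each p-value is therefore that between these libraries, and it may be technical. Genotype was taken from the sample titles, since title and genotype tag disagreed for 2 of 4 samples.

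MHC class II molecules are pairs of an alpha and a beta chain that display peptides from the endosomal pathway to CD4 T cells. The invariant chain, encoded by Cd74, binds new pairs and steers them to endosomes, where H2-DM exchanges its remnant for antigenic peptide and H2-O restrains H2-DM. The genes are switched on by CIITA, a co-activator without DNA-binding activity of its own that docks on a complex of RFX, NF-Y and CREB proteins at conserved promoter elements called the X and Y boxes. Interferon-gamma is a classic inducer of CIITA in macrophages. Resident alveolar macrophages are known for low MHC class II, and macrophages that arrive from blood monocytes, dendritic cells and B cells for higher levels.

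Promoter sequences of the members are shown first, because CIITA acts through the X and Y boxes. RefSeq promoters of GRCm38.p6, from 250 bases before to 50 after the transcript start, were held for 7 of 10 members; H2-Ab1, Cd74 and Ciita had no entry. Each line below gives 80 bases on the gene's strand, 5′ to 3′, aligned on the Y box. Capitals mark an X-box core (CNNGNAAC) and the Y box (ATTGG, an inverted CCAAT).
H2-Aa: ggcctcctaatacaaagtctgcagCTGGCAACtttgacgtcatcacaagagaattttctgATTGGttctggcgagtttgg
H2-Eb1: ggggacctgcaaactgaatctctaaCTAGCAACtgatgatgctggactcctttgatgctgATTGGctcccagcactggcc
H2-DMb1: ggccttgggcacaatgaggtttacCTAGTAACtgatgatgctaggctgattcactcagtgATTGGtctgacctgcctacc
H2-DMb2: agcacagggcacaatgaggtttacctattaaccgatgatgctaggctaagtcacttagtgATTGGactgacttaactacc
H2-Oa: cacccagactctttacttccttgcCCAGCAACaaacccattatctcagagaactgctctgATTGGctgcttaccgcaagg
H2-Ob: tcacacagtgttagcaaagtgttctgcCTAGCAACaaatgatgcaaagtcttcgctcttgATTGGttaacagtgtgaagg

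These stretches lie on chromosome 17 at chr17:34287852-34287931 (H2-Aa, minus strand) and, on the plus strand, at chr17:34305748-34305827 (H2-Eb1), chr17:34153070-34153149 (H2-DMb1), chr17:34145099-34145178 (H2-DMb2), chr17:34092276-34092355 (H2-Oa) and chr17:34238788-34238867 (H2-Ob). In 5 of them, an X-box core stood 25 to 28 bases upstream of the Y box. H2-DMb2 had the Y box, and the letters of the X-box core were not found in the matching place. Neither of the 2 H2-DMa promoters held the pair. The motifs were searched on both strands, do not overlap each other here, and were chosen after the sequences had been seen. Singly they are common, at 39.1% and 37.4% of 32851 promoters for the X-box core and the Y box. An X-box core followed by a Y box in the same orientation within 10 to 35 bases was found in 1.07%. H2-Oa and H2-Ob hold the pair as do H2-Aa and H2-Eb1. A match describes letters and does not show binding.

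OPNKO libraries held less RNA of the class II genes. Of 10 members, 8 fell and 0 rose at an adjusted p under 0.05 by limma, a linear model that shares the estimate of spread between genes, fitted to 16430 genes. Over all those genes 4.32% passed, 1.98% lower and 2.33% higher. All fold changes are OPNKO minus WT, on the log2(value + 1) scale unless the authors' table or edgeR is named. Their median was -0.89 over the members, and -0.0006 over all genes tested. In 9 of 10 members both OPNKO libraries lay below both WT libraries, which was so for 25.0% of all genes. The members' summed normalized read count was 298407 and 279534 in WT replicates 1 and 2, and 132470 and 125794 in OPNKO replicates 1 and 2. This was 0.660% and 0.640% of all values in WT, and 0.290% and 0.282% in OPNKO. In bulk RNA, fewer cells that express a gene and less of its RNA per cell cannot be told apart. With no filter on low values, limma called 0 members and 1 gene in all; leaving out only the genes with 0 reads in every library, an alternative chosen after seeing the data, it called 8. The limma calls also rest on both WT libraries: 0 members passed without WT replicate 1 (8 at an unadjusted p under 0.05), 1 without WT replicate 2, and 7 each without OPNKO replicate 1 and without OPNKO replicate 2. By edgeR's quasi-likelihood test on recovered reads, chosen for this purpose after seeing the data, 8 and 7 passed without WT replicate 1 and 2, and 5 and 4 without OPNKO replicate 1 and 2. The 8 members kept a negative log2 fold change under each of 18 alternatives. In these 8 both OPNKO libraries lay below both WT libraries, so leaving out a library could not turn the sign.

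**Figure D1:**
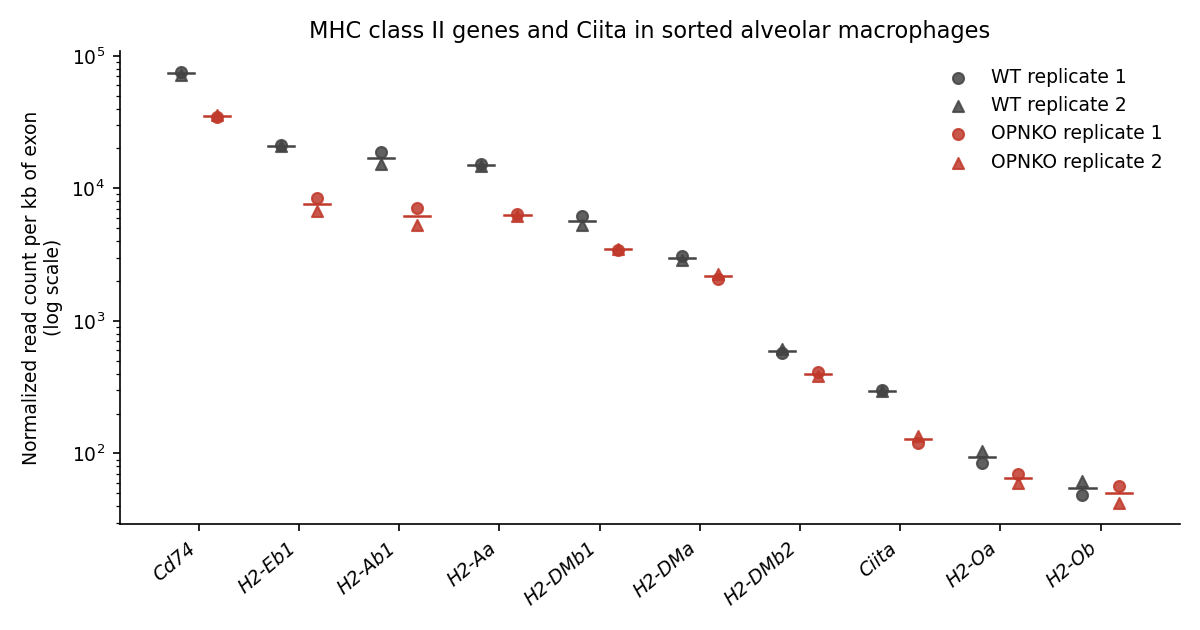
Normalized read count per kb of exon (log axis) of each member in the 4 libraries, with horizontal lines at the group means (n = 2). OPNKO points lie below WT points for every member except H2-Ob, whose groups overlap, and the levels run from Cd74 at 73651 to H2-Ob at 55.3 in the WT mean.

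The 3 chain genes of the peptide-presenting pairs all fell. H2-Aa, the alpha chain of the I-A molecule, had normalized read counts of 57895 and 55635 in WT and 24457 and 23463 in OPNKO. Both groups were tight and far apart, with means of 56765 ± 1598 in WT and 23960 ± 703 in OPNKO (SD, n = 2). The log2 fold change of -1.24, with a standard error (SE) of 0.07, passed at a limma adjusted p of 8.48e-04 and put OPNKO at 42.2% of the WT level. It ranked 8 by p-value among all genes tested.

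H2-Ab1, the beta chain that pairs with H2-Aa, measured 48183 and 38898 in WT and 18188 and 13541 in OPNKO. Its replicates spread more than those of H2-Aa, with WT replicate 1 at 123.9% of replicate 2 and OPNKO replicate 1 at 134% of replicate 2, but the groups did not overlap. The log2 fold change was -1.46 (SE 0.15, limma adjusted p = 0.00546), or 36.4% of the WT level. H2-Eb1, the beta chain of the I-E molecule, stood at 41090 and 40561 in WT and at 16494 and 13102 in OPNKO, with the WT libraries close together. It fell by 1.47 on the log2 scale (SE 0.11, limma adjusted p = 0.00161). C57BL/6 mice carry a defective alpha chain gene for I-E, so this beta chain RNA is made in a strain known to lack the I-E pair. H2-Eb2, a neighbouring gene outside the list of members, was low at 70.2 and 101 in WT and 54.8 and 32.4 in OPNKO and was not called (log2 fold change -0.98, limma adjusted p = 0.180).

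Cd74, the invariant chain gene, was the most abundant member per kb of exon, with rank 17 of 16222 genes in the WT mean and rank 27 in the OPNKO mean. Its normalized read counts were 126090 and 121230 in WT and 58170 and 59665 in OPNKO, with little spread within either group. It fell by 1.07 on the log2 scale (SE 0.09, limma adjusted p = 0.00221), to 47.6% of the WT level. Exon length here joins all annotated exons of a gene, 3798 bases for H2-Aa and 1679 for Cd74. Ranks and ratios per kb between genes therefore depend on the annotation. Within each library, where scaling between libraries plays no part, Cd74 per kb stood at 493% and 493% of H2-Aa in WT and at 538% and 575% in OPNKO. H2-Eb1 per kb stood at 138.7% and 142% of H2-Aa in WT and at 132% and 109.1% in OPNKO. Relative to H2-Aa, Cd74 was thus higher and H2-Eb1 lower in both OPNKO libraries, and these differences were not tested.

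The peptide-exchange genes fell less. H2-DMa, the alpha chain of the H2-DM exchange factor, measured 10589 and 9986 in WT and 7113 and 7837 in OPNKO. It fell by 0.46 on the log2 scale (SE 0.07, limma adjusted p = 0.0185). Its annotated exons overlap those of Brd2 on the opposite strand over 10.4% of their length. Brd2 was not called, at -0.01 on the log2 scale (limma adjusted p = 0.930). The libraries are stranded per the labels; a strand setting for the counting is not given in these sources.

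H2-DMb1, a beta chain of H2-DM, had 10315 and 8856 in WT and 5784 and 5904 in OPNKO. It fell by 0.71 on the log2 scale (SE 0.08, limma adjusted p = 0.00686). H2-DMb2, the other beta chain, was less abundant per kb, at 9.32% and 11.6% of H2-DMb1 in WT and 11.9% and 10.9% in OPNKO. Its values were 999 and 1064 in WT and 717 and 668 in OPNKO. It also fell (log2 fold change -0.57, SE 0.09, limma adjusted p = 0.0189), while in the authors' deposited table it did not pass (log2 fold change -0.57, adjusted p = 0.0650). The paralogs are similar in sequence: 21.2% of the 50-base windows in H2-DMb2 coding transcripts occur unchanged in H2-DMb1, so reads from either could be discarded or misassigned and both values are uncertain. The authors' deposited table held 7 of 10 members past an adjusted p of 0.05, all lower, against 1.61% of its genes.

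H2-Oa and H2-Ob, the chains of the H2-DM inhibitor H2-O, were the lowest members and did not pass. H2-Oa had normalized read counts of 119.6 and 147 in WT and 98.2 and 84.6 in OPNKO, from 68 to 151 reads per library. Both OPNKO libraries were lower, and the log2 fold change was -0.54 with a limma 95% interval from -1.07 to -0.00 (adjusted p = 0.232). H2-Ob measured 263 and 332 in WT and 308 and 229 in OPNKO, so the groups overlapped. Its log2 fold change was -0.15 with a 95% interval from -0.61 to 0.30 (limma adjusted p = 0.703), an interval that does not reach the fold change of H2-Aa. The sign for H2-Ob turned positive without WT replicate 2 (0.01) and without OPNKO replicate 2 (0.06). H2-Oa shares 22.8% of its exon length with BC051537 on the opposite strand, which had at most 2.93 normalized reads in any library. Relative to H2-DMb1 per kb, H2-Ob was 0.797% and 1.17% in WT and 1.67% and 1.21% in OPNKO.

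Ciita, the transactivator, was called lower as well. It measured 2864 and 2826 in WT and 1140 and 1300 in OPNKO, with WT replicate 1 at 101.3% of replicate 2. Its mean was 2845 ± 26.8 in WT and 1220 ± 112 in OPNKO (SD, n = 2), or 42.9% of the WT level. It fell by 1.22 on the log2 scale (SE 0.08, limma adjusted p = 0.00125). Its exons overlap those of Dexi on the opposite strand over 3.45% of their length. Per kb of exon, Ciita was 1.97% and 2.02% of H2-Aa in WT and 1.86% and 2.21% in OPNKO, and these ranges overlapped. Of the members, H2-Aa (42.2%) and Ciita (42.9%) thus had nearly the same share of their WT level left, with H2-Eb1 (36.2%) and H2-Ab1 (36.4%) below them and Cd74 (47.6%), H2-DMb1 (61.0%), H2-DMb2 (67.2%), H2-Oa (68.5%), H2-DMa (72.7%) and H2-Ob (90.3%) above. Their 95% intervals on the log2 scale overlap from H2-Eb1 to Cd74. Each interval describes a single gene, and overlap is not a test of a difference between genes of the same libraries. Differences between members were not tested, so the order among these 5 was not resolved. Without OPNKO replicate 2, the log2 fold change of Ciita was -1.32, below those of H2-Eb1 (-1.31), H2-Ab1 (-1.25) and H2-Aa (-1.21). The interval of H2-DMb1, from -0.90 to -0.52, just overlaps that of Cd74, from -1.27 to -0.87, and lies apart from those of Ciita and the 3 classical chains.

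The DNA-binding partners of CIITA were not called lower. Of 7 genes of the promoter complex, 0 passed in either direction by limma, with a median log2 fold change of 0.08. At an unadjusted p under 0.05 it was 1, Creb1, which was higher; by edgeR's adjusted p it was 0, and by DESeq2's it was again 1, Creb1. Rfx5, the RFX subunit that contacts DNA, had 1016 and 1008 in WT and 1023 and 1205 in OPNKO. Nfya, the NF-Y subunit with the highest level in the list, had 4231 and 4609 in WT and 4744 and 4884 in OPNKO (log2 fold change 0.12, 95% interval -0.04 to 0.28). Creb1 missed the threshold at 0.28 on the log2 scale (limma adjusted p = 0.0617), opposite in sign to Ciita.

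Among 13 genes upstream of Ciita, 1 fell and 0 rose, with a median of -0.05. The gene that fell was Irf4, a transcription factor of dendritic cells, B cells and alternatively activated macrophages. It had 958 and 1096 in WT and 666 and 579 in OPNKO (log2 fold change -0.72, SE 0.11, limma adjusted p = 0.0183). The interferon-gamma receptor gene Ifngr1 (log2 fold change -0.05) and the kinase gene Jak1 (0.01), the list's most abundant gene, were not called. Ifng itself was near the detection limit, at 16.4 and 24.4 in WT and 4.57 and 12.4 in OPNKO. Of 14 interferon-gamma-induced genes measured, 3 fell and 0 rose, with a median of -0.08. Over all genes tested, 1.98% were called lower. The chemokine gene Cxcl9 measured 909 ± 3.85 in WT and 289 ± 93.4 in OPNKO (SD, n = 2) and fell by 1.69 on the log2 scale (limma adjusted p = 0.00734). The GTPase genes Iigp1 (-1.18, limma adjusted p = 0.0346) and Ifi47 (-0.53, limma adjusted p = 0.0263) fell too. Gbp2 (-0.30, limma adjusted p = 0.0623) missed the threshold, with both OPNKO libraries below both WT libraries. Irgm1 (0.00) and Cxcl10 (0.04), induced by the same cytokine, were not called. At an unadjusted p under 0.05 by limma, 6 of the 14 passed. Of these, 5 were lower, and Cxcl11 was higher (2.36) at 1 to 10 reads per library. Cxcl9, Iigp1 and Ifi47 also passed by edgeR and DESeq2.

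The proteases that prepare antigen and trim the invariant chain stayed abundant. Of 9 lysosomal processing genes, 0 passed by limma, with a median log2 fold change of 0.06; 1 did so at an unadjusted p under 0.05 (Ifi30, lower), 0 by edgeR and 2 by DESeq2 (Ifi30, lower, and Ctsd, higher). Ctss, the cathepsin that makes the last cut in the invariant chain, had 426739 and 405558 in WT and 496841 and 443353 in OPNKO (log2 fold change 0.17, 95% interval -0.18 to 0.53). Ctsd, the list's most abundant gene, was not called at 0.29 on the log2 scale (limma adjusted p = 0.363). Ifi30, the thiol reductase of the endosome, had 26259 and 24183 in WT and 20029 and 21239 in OPNKO, and missed the threshold at -0.29 on the log2 scale (limma adjusted p = 0.0802). Of 4 turnover genes, 0 passed by limma, with 1 at an unadjusted p under 0.05 (March8, higher), 0 by edgeR and 0 by DESeq2. March1, the ubiquitin ligase that removes class II from the surface and the list's most abundant gene, had 10170 and 9650 in WT and 9825 and 9954 in OPNKO (log2 fold change -0.00, 95% interval -0.15 to 0.14).

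**Figure D2:**
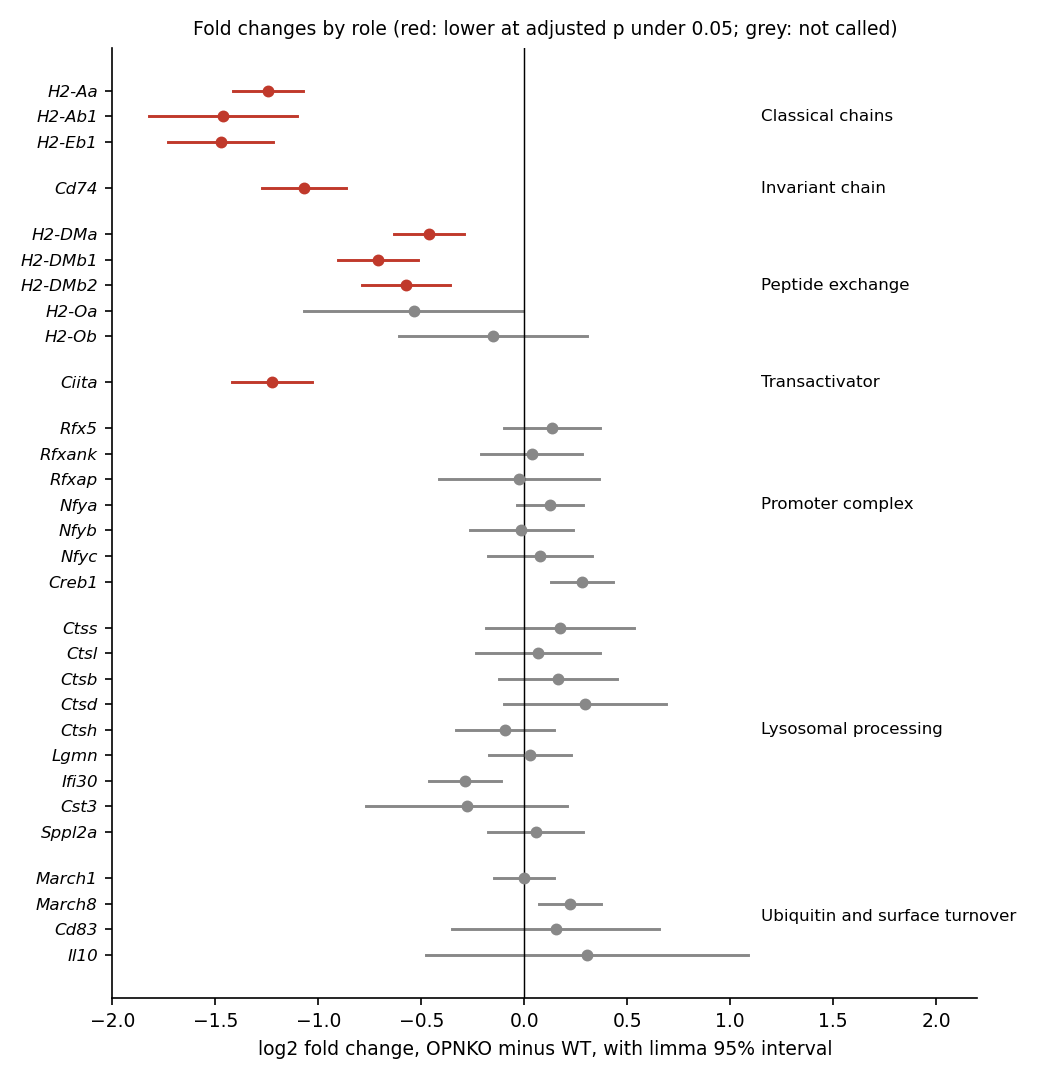
Log2 fold change of OPNKO minus WT with limma's 95% interval (x axis) for the members and 3 lists of partner genes, grouped by role; red marks genes lower at an adjusted p under 0.05. Red intervals run from H2-Eb1 at -1.47 to H2-DMa at -0.46, and the promoter complex, processing and turnover genes are grey.

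On the side of the T cell, RNA of both coreceptors was higher in OPNKO. Cd4, which binds MHC class II, rose from 468 and 514 in WT to 929 and 1486 in OPNKO (log2 fold change 1.26, limma adjusted p = 0.0197). Lag3, another class II receptor, was not called (-0.58, limma adjusted p = 0.207), nor were the costimulatory genes Cd80 (0.21), Cd86 (-0.32) and Cd40 (-0.79). Cd8a and Cd8b1, the chains of the coreceptor that binds MHC class I, rose by more on the log2 scale (2.34, limma adjusted p = 0.00364, and 2.03, limma adjusted p = 0.0103), and their difference from Cd4 was not tested. T cell markers as a list, which holds these 3 genes, rose in 6 of 10 genes and fell in 0, and their summed value went from 2364 and 2942 in WT to 5920 and 9677 in OPNKO. By limma, 2.33% of all genes tested were called higher. Cd3e (0.99), Cd3d (0.79), Cd3g (0.94) and Trac (0.45) were not called, with limma adjusted p from 0.067 to 0.439. Cd3e and Cd3g passed by DESeq2. The source of this RNA in libraries of sorted alveolar macrophages was not tested.

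Of the members, 8 lie within one stretch of chromosome 17, from 34092340 to 34316674 in GRCm38 (GENCODE M21), while Ciita lies on chromosome 16 from 10480059 to 10528418 and Cd74 on chromosome 18. The stretch holds 8 other genes of the table, and 0 of these passed in either direction, with a median log2 fold change of -0.23. At an unadjusted p under 0.05 there were 3 (Psmb8, Psmb9 and Tap1, all lower), and 0 passed by edgeR and 0 by DESeq2. The transporter genes Tap1 and Tap2 and the immunoproteasome genes Psmb8 and Psmb9, which serve MHC class I, lie between H2-DMb1 and H2-Ob. Tap1 had 2805 and 3113 in WT and 2463 and 2511 in OPNKO (log2 fold change -0.25, limma adjusted p = 0.113), and Tap2 had a log2 fold change of -0.03. Psmb8 (-0.29, limma adjusted p = 0.157) and Psmb9 (-0.22, limma adjusted p = 0.158) were also lower without passing. Along the stretch, the classical chains at one end had the greatest falls, and H2-Ob beside them had no call.

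**Figure D3:**
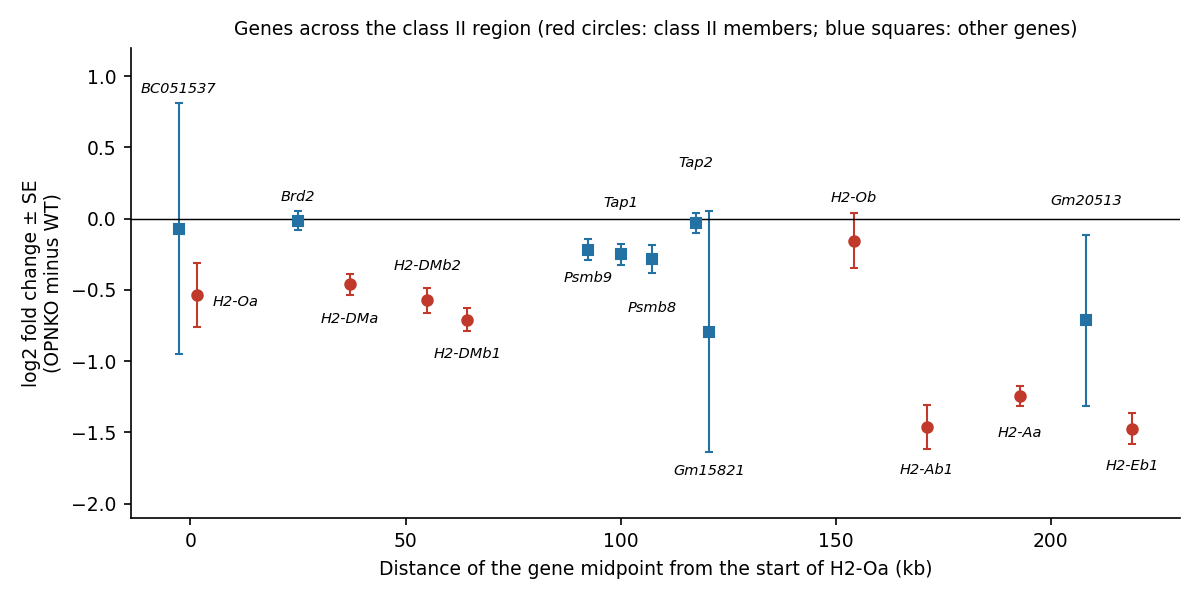
Log2 fold change with its SE (y axis) of the 16 genes between H2-Oa and H2-Eb1 against the distance of each gene's midpoint from the start of H2-Oa in kb; red circles are class II members and blue squares other genes. H2-Ab1, H2-Aa and H2-Eb1 lie at -1.24 or below, and Brd2 (-0.01) and Tap2 (-0.03) lie next to 0.

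Markers of other cells that carry MHC class II were measured beside these falls. By limma, 1.98% of all genes tested were called lower and 2.33% higher. Of 14 dendritic cell markers, 3 fell and 0 rose. These were Fscn1, an actin bundler (log2 fold change -1.94), and the lectin genes Clec10a (-1.39) and Mgl2 (-1.27). The list's median was -0.52. At an unadjusted p under 0.05 by limma, 6 were lower, now with Ccr7 (-0.96), Itgae (-0.76) and Ccl22 (-1.08). By edgeR's adjusted p it was 3, and by DESeq2's it was 5, now with Ccr7 and Itgae. In 9 of 14 both OPNKO libraries lay below both WT libraries, which was so for 25.0% of all genes. The 14 markers' summed value was 3578 and 5365 in WT and 2365 and 2288 in OPNKO, and 0 of 14 were at 0 reads in all libraries. Mgl2 (969 and 1508 in WT, 530 and 470.5 in OPNKO) and Ccl22 (815 and 1554 in WT, 582 and 485 in OPNKO) weighed most in this sum. The defining genes Flt3 (88.8 and 118 in WT, 81.0 and 75.9 in OPNKO) and Zbtb46 (54.8 and 88.8 in WT, 54.8 and 58.5 in OPNKO) were low and not called. The dendritic sum differed between the WT libraries, at 80.0% of the WT mean in replicate 1 and 120.0% in replicate 2. Which cells in these libraries made the RNA of the listed markers was not tested, nor was the part of dendritic cells in the class II fall.

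No B cell marker was called lower. Of 11, 0 fell and 1 rose by limma, edgeR and DESeq2 alike, with a median of -0.24, and Cd79a was lower at an unadjusted p under 0.05. The gene that rose, Cd22, made up most of their sum; without it the sum was 1631 and 1988 in WT and 1687 and 1385 in OPNKO, and the groups overlapped. Of 10 monocyte and monocyte-derived markers, 4 fell and 0 rose, against 1.98% and 2.33% of all genes tested. Their median was -0.32, with sums of 34563 and 35549 in WT and 21585 and 19822 in OPNKO. Those that fell were Ccr2, the monocyte chemokine receptor gene (-1.14), Ace (-0.77), Vcan (-1.30) and Adgre4 (-1.23), while Ly6c2, a marker of classical monocytes, was low at 46.1 and 58.6 in WT and 43.4 and 47.3 in OPNKO. Of 9 interstitial macrophage markers, 0 passed by limma and 9 were negative. Their median was -0.41, against -0.0006 over all genes tested. At an unadjusted p under 0.05 by limma 5 were lower, with 0 by edgeR and 3 by DESeq2 (C1qb, Lyve1 and Tmem119). Their sum was 221658 and 244815 in WT and 281946 and 164919 in OPNKO, so the OPNKO libraries lay on either side of WT. Without Apoe, the most abundant of them, it was 58264 and 65123 in WT and 58289 and 38350 in OPNKO, and the groups still overlapped. The part of monocyte-derived and interstitial macrophages was not tested either.

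Markers of the resident alveolar macrophage were present in every library. Their presence in bulk RNA does not show what share of the cells carried them. Siglecf had 6374 to 8876, Marco 7918 to 11671, Pparg 5293 to 7689 and Itgax 76150 to 94273 normalized reads over the 4 libraries. Of 12 resident markers, 2 rose (Krt79 and Pparg) and 1 fell (Car4) by limma. Their sum was lower in OPNKO, at 951793 and 946970 in WT and 629676 and 751794 in OPNKO. Chil3, the most abundant of them, had 634850 and 643790 in WT and 311109 and 411474 in OPNKO; it missed the threshold by limma (log2 fold change -0.84, adjusted p = 0.0528) and passed as lower by edgeR and DESeq2. Without Chil3 the sum was 316943 and 303180 in WT and 318567 and 340321 in OPNKO. Spp1, the gene removed in OPNKO, had 545719 and 606517 in WT and 4106 and 3847 in OPNKO, so the titles and not the genotype tags match its level. The libraries held 35793800 to 44759630 reads in genes.

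**Figure D4:**
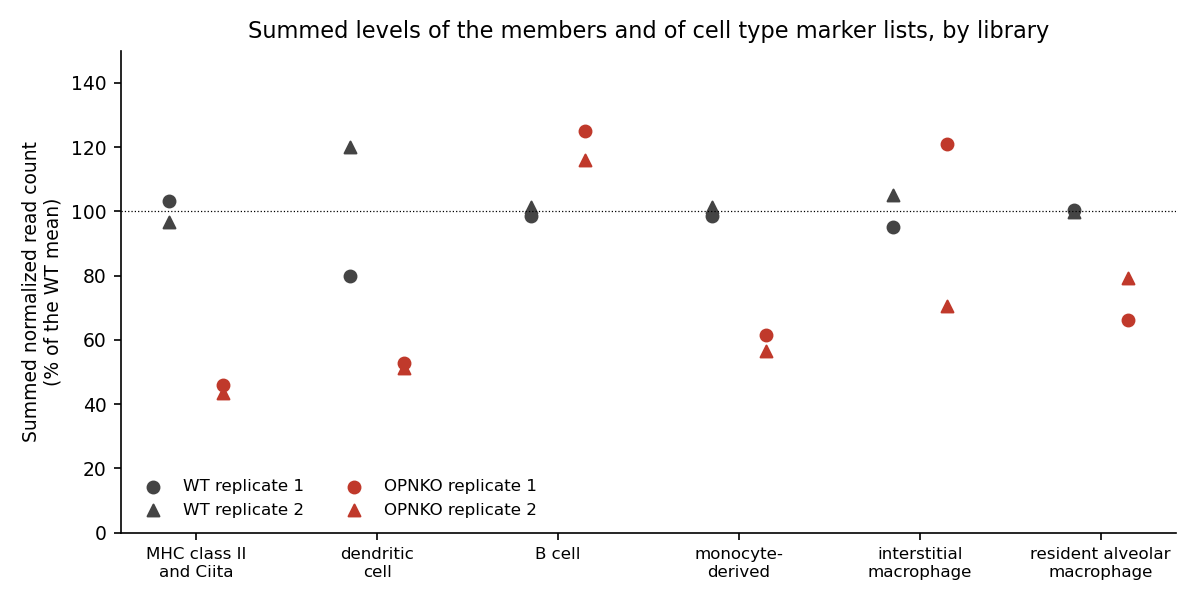
Summed normalized read count in each library as a percentage of the WT mean (y axis) for the members and 5 cell type marker lists; circles are replicate 1 and triangles replicate 2. The members stand at 45.8% and 43.5% in OPNKO, and the dendritic list at 52.9% and 51.2% with WT libraries at 80.0% and 120.0%. Mgl2 and Ccl22 weigh most in the dendritic list, and the B cell and resident lists are shown with Cd22 and Chil3 included.

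The genes whose pattern over the 4 libraries lay closest to the mean of H2-Aa, H2-Ab1 and H2-Eb1 were sought among 8073 other genes whose values averaged 500 or more. Likeness was the Euclidean distance between log2 profiles centred on their own mean, so it rests largely on the genotype difference itself, and with 4 libraries it is a description. The closest 5 were AA467197 (distance 0.19), Gatm (0.27), Ccr2 (0.31), Ece1 (0.35) and Slc7a5 (0.35). By the same measure Ciita stood at 0.38, Cd74 at 0.39, H2-DMb1 at 0.72 and H2-Ob at 1.29. AA467197 had 1675 and 1765 in WT and 757 and 659 in OPNKO. Gatm, the first enzyme of creatine synthesis, had 2004 and 1753 in WT and 944 and 778 in OPNKO. Ccr2 had 16844 and 17342 in WT and 8014 and 7537 in OPNKO.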

How the data were processed

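The authors deposited one table of 16755 genes with a normalized signal per library, which is a read count divided by a size factor, beside their log2 fold change with its standard error, the Wald score, and raw and adjusted p-values, per the file headers. The submitters' processing notes name STAR 2.4.1d, HTSeq 0.6.1p1, Trim Galore 0.4.0 and edgeR, without roles. Genome build, annotation and strand setting: not given in the sources used here. Per the labels, 10 libraries shared one sequencing lane, of which 4 were analysed here. Whole reads were recovered for 100% of values (tolerance 0.001 reads). A further 2 unlabelled columns were unused, and 1 row with a blank symbol (0.0167% of the values) was left out.

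limma 3.58.1 (trend, R 4.3.3) was fitted to log2(value + 1) of 16430 genes whose mean was 1 or more (324 left out), with Benjamini-Hochberg adjustment over all of them and a threshold of 0.05. The pseudocount understates changes of low genes. Alternatives were other scalings, filters and pseudocounts, each library left out, a replicate block, and counts of recovered reads tested with edgeR 4.0.16 and DESeq2 1.42.0; the fits were tested on simulated data. With 2 libraries per group, the smallest two-sided p of an exact permutation test is 0.333. The members and all gene lists were chosen with earlier results of these data known. Named genes were all members, list genes that passed, the most abundant gene of each regulator list, other genes of the class II region and the 5 most alike; other named genes, and the sums without Cd22, Chil3 or Apoe, were chosen after their values were seen. Names, positions and exon lengths came from GENCODE M21 by Ensembl identifier (16542 matched). Exon length was the union of all annotated exons of a gene. Python 3.11.15 with pandas 2.3.3, numpy 2.4.6 and matplotlib 3.10.9 prepared the tables and plots.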

Additional observations from a re-analysis of the deposited data

How the results depend on the processing

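Of 180 comparisons of a member's fold change with an alternative, 143 kept direction and side of the threshold, 33 kept direction but no longer passed, and 4 changed sign, all 4 of them H2-Ob with a library left out (-0.37 to 0.060 by limma; by edgeR, 0.025 without WT replicate 2 and 0.037 without OPNKO replicate 2). The count of members lower in OPNKO was 8 under both other scalings, both other pseudocounts, a minimum mean of 50, edgeR, DESeq2 and the replicate block, and the count of members higher was 0 throughout. With no filter, limma called 1 gene in all and 0 members (8 at an unadjusted p under 0.05); leaving out only the rows with 0 reads in all libraries, added after seeing the data, gave 656 and 8. Leaving out one library gave 4 to 545 genes and 0 to 7 members by limma, and by edgeR (added after seeing the data) 1010 and 442 genes without WT replicate 1 and 2 (8 and 7 members) and 242 and 83 without OPNKO replicate 1 and 2 (5 and 4 members); the lone library is taken to vary as the other group does. In all genes DESeq2 called 1135 and the replicate block 1566, against 709. Over 11623 genes, same-numbered libraries did not deviate together (correlation -0.03). H2-Aa, H2-Ab1 and H2-Eb1 were lower in replicate 2 than in replicate 1 in both genotypes. Each other member moved in opposite directions in WT and OPNKO. A correlation over many genes cannot exclude pairing in single genes, so whether same-numbered libraries were paired was not settled. H2-Oa, at 68 to 151 reads per library, and H2-Ob, at 184 to 340, had the fewest reads of the members. Whether depth limited the calls of H2-Oa and H2-Ob was not tested.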
